A study of Caenorhabditis elegans with 6 samples.

Results

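The spliced leader RNA genes of Caenorhabditis elegans were taken as all genes whose symbol is sls-1 or sls-2 followed by a copy number. They numbered 31 of the 32238 genes in each deposited table, 12 SL1 genes (sls-1) and 19 SL2 genes (sls-2), and all 31 were present in both the sense and the antisense table. The counts come from small RNA sequencing of embryos of 2 genotypes, with 3 libraries for each. The double mutant carried dot-1.1(knu339) and ced-3(n1286), and the control carried ced-3(n1286) alone, so all 6 libraries share the ced-3 mutation. Values below follow replicates 1, 2 and 3, with those of the ced-3 single mutant, the control, first. The gene dot-1.1 encodes the worm homologue of DOT1L, which methylates histone H3 at lysine 79, and ced-3 encodes the caspase of programmed cell death. Embryos were isolated with hypochlorite from egg-laying adults grown at 20 °C. The labels name no second strain of either genotype, and the sources used here do not say what the knu339 and n1286 alleles change. Libraries were labelled as biological replicates, and p-values reflect the spread between these 6 libraries alone. The comparison asked whether small RNA counts at these genes differ with the dot-1.1 mutation, and how SL1 compares with SL2.

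Spliced leader RNAs are short nuclear RNAs that donate their 5′ end, the leader, to messenger RNA precursors in trans-splicing. They carry a trimethylguanosine cap and are bound by the Sm proteins, as spliceosomal RNAs are. SL1 is the leader joined to the first or only gene of a transcription unit, while SL2 is joined mainly to downstream genes of operons, clusters transcribed as one precursor. In the worm genome the SL1 genes lie in a tandem repeat together with the genes for 5S ribosomal RNA, and the SL2 genes are dispersed.

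The libraries held inserts of 18 to 40 bases read with single reads of 50 bases, and the annotated spliced leader genes are longer, between 68 and 115 bases. The counts therefore record short pieces of these RNAs and not the intact RNA. Table totals ranged from 19206363 to 26409182 sense counts and from 4891289 to 6568937 antisense counts. MicroRNA genes took between 72.9% and 92.4% of the sense counts, with the highest shares in single-mutant replicate 2 at 92.4% and double-mutant replicate 3 at 89.5%. The scaling factors of these libraries were the lowest, 0.580 and 0.533, against 1.14 to 1.95 in the other 4, so their normalised counts were raised most. Embryonic microRNAs of the mir-35 to mir-42 family made up 31.3% to 36.8% of microRNA counts. Late larval and adult microRNAs made up at most 0.0394%, so the markers did not go against the embryo label. Summed counts of the vitellogenin genes, which mark the adult intestine, were 813, 7 and 677 in controls against 337, 304 and 284 in double mutants. Their part in the results was not tested.

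All 12 SL1 genes lie on chromosome V between 17118154 and 17132107 (WBcel235). The 11 copies sls-1.1 to sls-1.11 are on the minus strand and alternate with 5S genes, and the twelfth, sls-1.12 (17118154 to 17118251), is on the plus strand at the low end of the array. The annotated length is 68 bases for sls-1.1 and sls-1.5 and 98 for the other SL1 genes. The spacing to the preceding copy was 976 and 982 bases at the lower end of these short copies but 946 and 952 at the upper end. On the minus strand the upper end is the 5′ end, so the short annotations lack 30 bases there.

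The 11 minus-strand copies had nearly the same sense count within each library. In the single mutant their counts ran from 538 to 644 in replicate 1, from 1447 to 1528 in replicate 2 and from 853 to 974 in replicate 3. In the double mutant the ranges were 328 to 373, 689 to 761 and 955 to 1008. Between copies of a library the variance was 0.213 to 1.47 times the mean, where independent counting gives on average a variance equal to the mean. The libraries differed far more than the copies did, and the lowest range belonged to double-mutant replicate 1 and the highest to single-mutant replicate 2.

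Counts followed the number of copies and not their annotated length. Over all libraries the short copies held 10034 of 55343 counts of the minus-strand copies, a share of 18.1% (exact 95% binomial interval 17.8% to 18.5%, counting error only). They are 18.2% of the copies by number and 13.4% by annotated bases. The mean count of a short copy was 0.956 to 1.02 times that of a long copy in each library. The sources used here do not say how the authors treated reads that match several copies, so the count of any single copy is uncertain. The sum over the family does not depend on how reads were divided among its copies. If a read was counted at each copy it matches, however, the sum holds that read more than once.

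The plus-strand copy sls-1.12 stood apart from the rest of the array. It had 7576, 19238 and 11808 counts in controls against 4621, 9243 and 12815 in double mutants. These were 12.9 to 13.4 times the mean of the other SL1 genes of the same library, and 1.17 to 1.22 times their sum. Its part of all SL1 counts was 53.9% to 54.9% in every library, in both genotypes. The plot of sense counts by gene shows the level row of minus-strand SL1 copies, sls-1.12 above it and the wide spread of the SL2 genes.

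**Figure D1:**
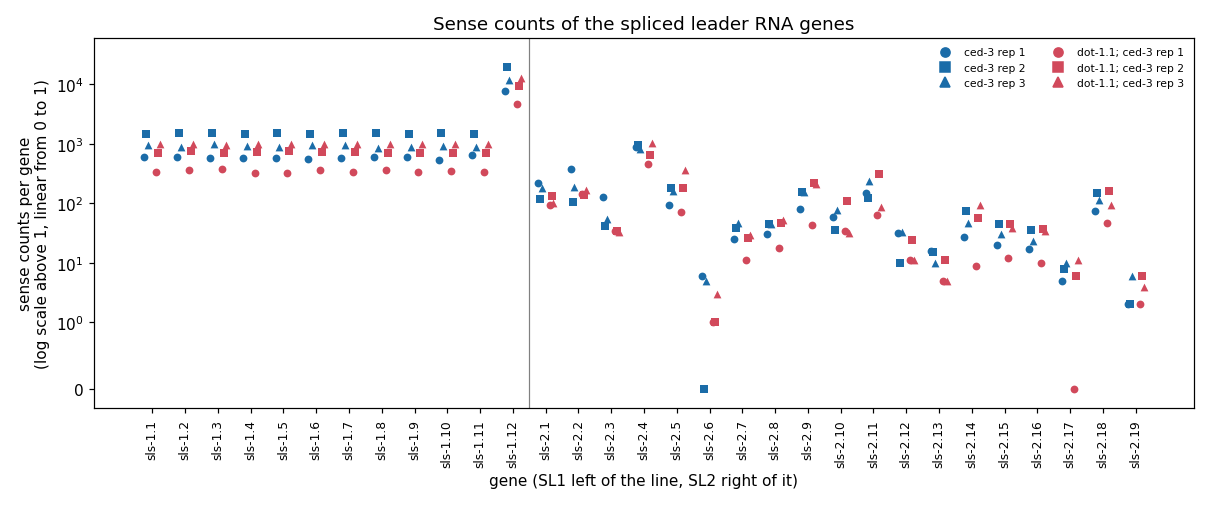
Sense counts of each spliced leader gene in each of the 6 libraries on a log scale, with the single mutant and the double mutant in different colours. The 11 minus-strand SL1 copies lie together between 328 and 1528 counts, sls-1.12 lies between 4621 and 19238, and the SL2 genes range from 0 to 1030.

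The SL2 genes are spread over 4 chromosomes, with 4 genes on I, 3 on II, 6 on III and 6 on IV, and are annotated with 107 to 115 bases. RefSeq lists 18 of them as small nuclear RNA genes and sls-2.19 as a pseudogene. Several lie inside introns of protein-coding genes. Within glr-2, a glutamate receptor gene, lie sls-2.5, sls-2.16 and sls-2.18, and within W09D6.5 lie sls-2.14 and sls-2.15.

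One SL2 gene, sls-2.4 on chromosome I (4172206 to 4172315, plus strand), held 29.4% to 44.9% of all SL2 sense counts. Its counts were 894, 964 and 810 in controls against 452, 643 and 1030 in double mutants. The highest and the lowest of these values both came from double mutants, so the genotypes overlapped. After it, sls-2.2 on chromosome II (5543598 to 5543707) had 376, 104 and 185 counts in controls against 141, 138 and 169 in double mutants. On chromosome III, sls-2.5 (7140447 to 7140553) had 93, 182 and 160 against 72, 184 and 359. The library that was highest for sls-2.2, single-mutant replicate 1, was among the lower ones for sls-2.5. At the other end, sls-2.6, sls-2.17 and sls-2.19 had 16, 40 and 22 counts over all 6 libraries and did not pass the filter on low counts. The only 0 values in the sense table were single-mutant replicate 2 for sls-2.6 and double-mutant replicate 1 for sls-2.17.

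Some SL2 reads were also counted for a second gene. The non-coding gene R12E2.18 lies on the strand opposite sls-2.4 and covers bases 1 to 101 of it. Its antisense counts equalled the sense counts of sls-2.4 in 6 of 6 libraries, 4793 in all. The same held within 1 count for 3 other genes. C17C3.23 had 1112 antisense counts where sls-2.2 had 1113 sense counts, C17C3.22 had 325 where sls-2.3 had 324, and Y75B8A.49 had 236 where sls-2.8 had 237. In each of these pairs 5 of 6 libraries were equal. The antisense values of these partner genes therefore cannot be separated from SL2 sense reads, although such reads add nothing to the values of the sls genes themselves. B0280.21, on the same strand as sls-2.18 (chromosome III, 7142291 to 7142397), covers only bases 1 to 22 of it and had 15 counts in place of 635.

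Summed over each family, SL1 exceeded SL2 in every library. The SL1 sum was 13965, 35587 and 21839 sense counts in controls against 8422, 17146 and 23685 in double mutants. The SL2 sum was 2251, 2148 and 2227 in controls against 1058, 2184 and 2391 in double mutants. The genotypes overlapped for both families. Among single mutants SL1 varied widely while SL2 stayed close to one value, and among double mutants replicate 1 was the lowest for both.

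Per annotated base of each family, SL1 had 11.6, 31.1 and 18.4 times the counts of SL2 in controls against 14.9, 14.7 and 18.6 times in double mutants. Between the members with the most counts, sls-1.12 had 9.51 to 22.4 times the counts of sls-2.4 per base. The count of a single SL1 copy is uncertain, as said above, and so is this ratio. Comparisons of the family sums also rest on the unknown treatment of reads that match several copies. The ratio of SL2 to SL1 counts needs no scaling between libraries. Its log2 was -2.63, -4.05 and -3.29 in controls against -2.99, -2.97 and -3.31 in double mutants. The means were -3.33 ± 0.71 and -3.09 ± 0.19 (SD, n = 3), a difference of 0.23 that was smaller than the spread between single-mutant libraries. SL2 made up 5.69% to 13.9% of the counts of both families in controls against 9.17% to 11.3% in double mutants.

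**Figure D2:**
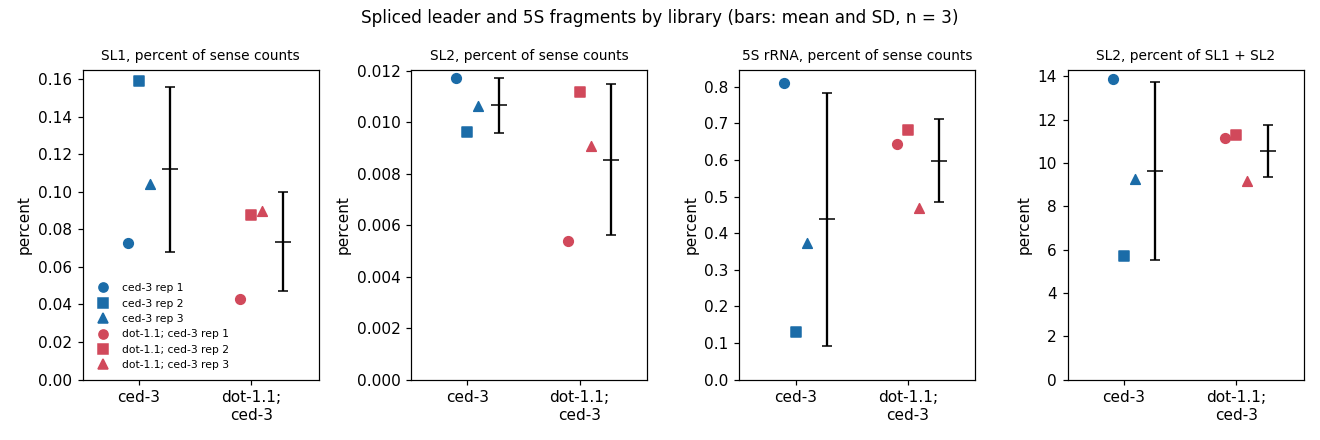
Summed SL1, SL2 and 5S ribosomal RNA counts as percent of all sense counts, and SL2 as percent of SL1 and SL2 counts. Each point is 1 library, grouped by genotype, with bars for mean and SD (n = 3). The genotypes overlap in each panel. Single-mutant replicate 2 has the highest SL1 share, 0.159%, and the lowest SL2 part of both families, 5.69%.

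The spread between libraries remained wide after scaling. In counts per 1000000 of the adjusted library size, SL1 was 374, 2748 and 911 in controls against 345, 759 and 1684 in double mutants. The means were 1344 ± 1245 and 929 ± 686 (SD, n = 3), with overlap. SL2 was 60.2, 166 and 92.9 against 43.4, 96.6 and 170.0, with means of 106 ± 54.1 and 103 ± 63.6. In both families the libraries with the largest microRNA share, single-mutant replicate 2 and double-mutant replicate 3, stood highest within their genotype. Per 1000000 microRNA counts the SL1 values were 935, 1724 and 1200 against 588, 1111 and 1002, and the genotypes again overlapped.

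SL2 genes on different chromosomes did not vary together between libraries of one genotype. This pattern was chosen after the values were seen and has no test. From single-mutant replicate 1 to replicate 2 the ratio of sense table totals was 1.16, and from double-mutant replicate 1 to replicate 3 it was 1.34. The SL2 genes on I and III that passed the filter, 9 in number, had count ratios of 1.08 to 2.70 in the first pair of libraries and 2.02 to 10.2 in the second. The 7 such genes on II and IV had ratios of 0.277 to 0.938 and 0.941 to 1.38. The SL1 genes had 2.27 to 2.84 and 2.56 to 3.03, above the table total for 12 of 12 in both pairs.

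On chromosome II the SL2 counts summed to 724, 264 and 420 in controls against 269, 307 and 302 in double mutants. On chromosome III they summed to 261, 531 and 418 against 167, 528 and 669, and on chromosome IV to 260, 195 and 371 against 115, 460 and 150. Single-mutant replicate 1 was thus the highest library for chromosome II, double-mutant replicate 3 for chromosome III and double-mutant replicate 2 for chromosome IV. On chromosome III, sls-2.14 had 27, 73 and 47 counts in controls against 9, 57 and 92 in double mutants, and its lowest and highest values were both double mutants. The near-constant SL2 sum of the single mutant thus combined genes that differed between libraries in opposite directions. From single-mutant replicate 1 to 2 and double-mutant replicate 1 to 3 the ratio of microRNA totals was 1.38 and 1.65. That of 5S sums was 0.185 and 0.981. Their part in the pattern was not tested.

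**Figure D3:**
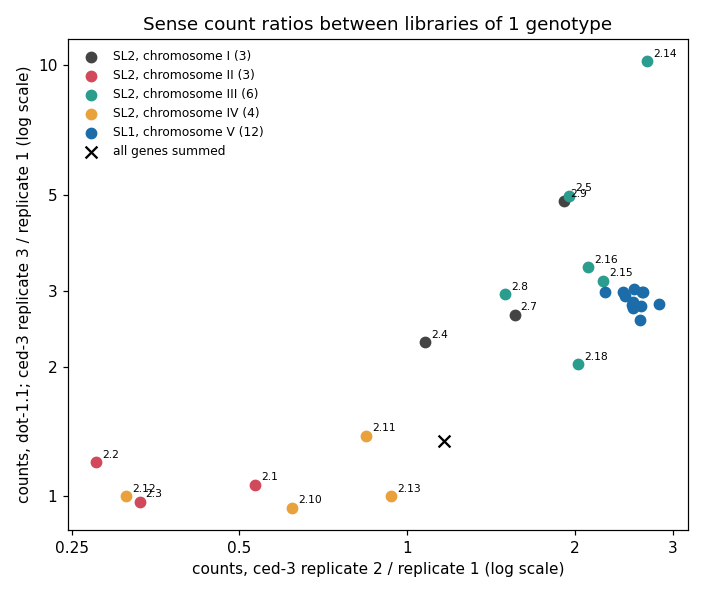
Count ratios between libraries of one genotype, single-mutant replicate 2 over replicate 1 on the x axis and double-mutant replicate 3 over replicate 1 on the y axis, both on log scales, 1 point per spliced leader gene that passed the filter on low counts, by family and chromosome, with a cross for the table total. The SL2 genes plotted for II and IV lie below 1 on the x axis, between 0.277 and 0.938, and those on I and III lie above 1 on both axes.

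No spliced leader gene passed the threshold between genotypes. Of the 31 genes, 28 had enough sense counts to be tested, all 12 SL1 and 16 SL2 genes. With edgeR's quasi-likelihood test and Benjamini-Hochberg adjusted p under 0.05 as the threshold, 0 of these 28 were called, against 0 of 7680 genes in the whole sense table, or 0.0%. At an unadjusted p under 0.05 there were 0 of 28 members, against 8.12% of all genes tested. DESeq2 called 0 members and 10 genes in all, which is 0.193% of those it adjusted. Libraries of the genotypes overlapped for 28 of 28 members on the normalised scale, whereas 12.8% of all genes tested did not overlap, 5.79% lower and 6.97% higher in the double mutant.

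The SL1 genes had log2 changes (double over single mutant) of -0.59 to -0.48 with a median of -0.54, beside a median of 0.015 over all genes tested. All 12 were below 0, as were 49.1% of all genes tested. Copies with nearly equal counts are not 12 separate values. Their standard errors were 0.84 to 0.91, larger than the changes, and their adjusted p in edgeR was 0.866 to 0.897. For sls-1.12 the change was -0.53 ± 0.91 (SE, n = 3 and 3, edgeR adjusted p = 0.890). The smallest p of the family belonged to sls-1.3, at -0.59 ± 0.84 (SE, edgeR adjusted p = 0.866). Summed into 1 row of the same fit, SL1 had a log2 change of -0.53 ± 0.92. Without single-mutant replicate 2 the median was 0.53, so that library decides the sign of a value that did not pass the test.

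The SL2 genes were on both sides of 0, with 9 below and 7 above. Their log2 changes ran from -0.84 ± 0.60 for sls-2.13 to 0.66 ± 0.83 for sls-2.5 (SE), with a median of -0.09. The smallest p was that of sls-2.3 on chromosome II (5544164 to 5544273, minus strand), which had 127, 42 and 54 counts in controls against 34, 34 and 33 in double mutants. Every single-mutant count was above every double-mutant count, but on the normalised scale the genotypes overlapped. The change was -0.77 ± 0.42 (SE, edgeR unadjusted p = 0.097, adjusted p = 0.611). For the most abundant member, sls-2.4, the change was -0.14 ± 0.72 (SE, edgeR adjusted p = 0.972), and for the SL2 sum it was -0.037 ± 0.72. The SL2 median was 0.36 without single-mutant replicate 2 and 0.26 without double-mutant replicate 1.

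When libraries were scaled by table totals or by microRNA counts, the median of all genes moved to -0.27 or -0.18. Relative to it the SL1 median was -0.35 or -0.34, and -0.55 under the main scaling. The SL2 median was 0.10 or 0.12 above that of all genes under these scalings and 0.10 below it under the main one, so its side relative to other genes depends on the scaling. In whole embryos, fewer cells with a given RNA and less of that RNA per cell cannot be told apart.

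**Figure D4:**
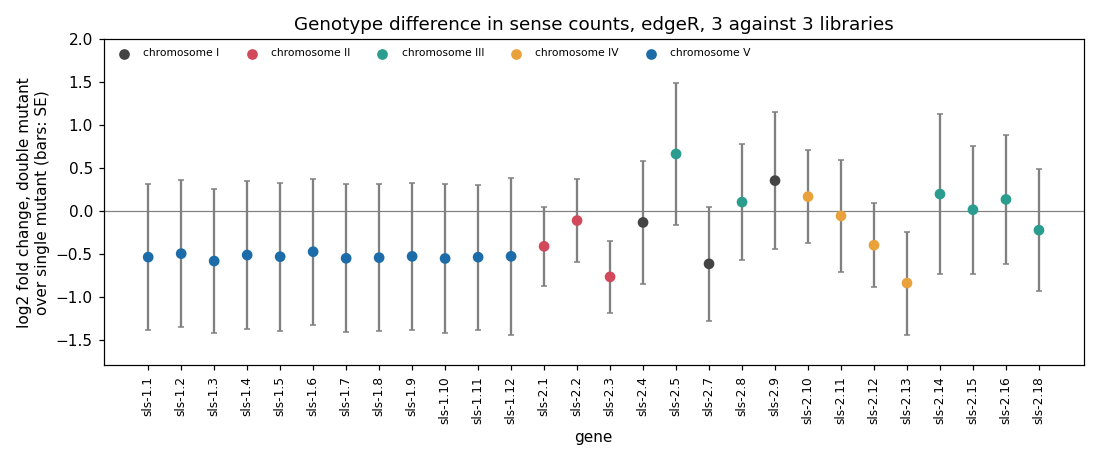
Log2 change of each tested spliced leader gene in the sense table, double over single mutant, with 1 standard error on each side from the edgeR fit. The 12 SL1 genes lie together between -0.59 and -0.48, and the 16 SL2 genes lie on both sides of 0.

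Antisense counts at the spliced leader genes were few. None of the 31 genes passed the filter on low counts, so the antisense table gave no test, and DESeq2, which applied no such filter, called 0 of them and 0.022% of the genes it adjusted. The SL1 genes had 0 to 6 antisense counts per gene and library and the SL2 genes 0 to 17. Summed over SL1 there were 26, 12 and 31 counts in controls against 29, 24 and 12 in double mutants. Over SL2 there were 38, 50 and 60 counts against 66, 84 and 51. The genotypes overlapped in both families. In counts per 1000000 the SL2 sums were 5.78, 10.9 and 11.2 against 11.7, 12.5 and 12.5, which did not overlap, so the overlap depends on the scaling. It also depends on which SL2 genes are summed, as given below.

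Summed SL2 thus exceeded summed SL1 in antisense counts in 6 of 6 libraries, the reverse of the sense table. These sums are not per annotated base, and SL2 has 19 genes against 12 for SL1. The 14 SL2 genes without an exon annotated opposite them had 25, 43 and 40 antisense counts in controls against 32, 61 and 41 in double mutants. In single-mutant replicate 1 their 25 counts were below the 26 of SL1. The log2 ratio of SL2 to SL1 antisense counts was 0.54, 2.01 and 0.94 in controls against 1.17, 1.79 and 2.04 in double mutants, again with overlap. Of the counts on both strands, the antisense part was 0.0337% to 0.343% for SL1 and 1.66% to 5.87% for SL2. For SL2 it was 1.66%, 2.27% and 2.62% in controls against 5.87%, 3.70% and 2.09% in double mutants, with overlap. Double-mutant replicate 1 was the highest library for both families.

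The most abundant SL1 gene in the antisense table was sls-1.9, with 4, 0 and 3 counts against 5, 3 and 1. The most abundant SL2 gene was sls-2.3, with 4, 3 and 9 counts in controls against 17, 12 and 7 in double mutants. Its normalised values were higher in every double mutant than in any control. Those of sls-1.6 were too, and those of sls-1.4 and sls-1.10 were lower in every double mutant, each with at most 4 counts in a library. Among the 7297 antisense genes that passed the filter, none of which is a spliced leader gene, 10.2% did not overlap, 5.28% higher and 4.96% lower. C17C3.22, opposite sls-2.3, had 49 sense counts where this gene had 52 antisense counts. For Y75B8A.49 and sls-2.8 both totals were 35. They were 8 and 9 for R12E2.18 and sls-2.4, and 11 and 6 for C17C3.23 and sls-2.2. Antisense counts of sls-2.3 and sls-2.8 therefore cannot be separated from sense reads of these partner genes. Over the 14 SL2 genes without an exon annotated opposite them the antisense part was 2.95% to 7.22%, so antisense counts were not limited to the 5 genes with such an exon.

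**Figure D5:**
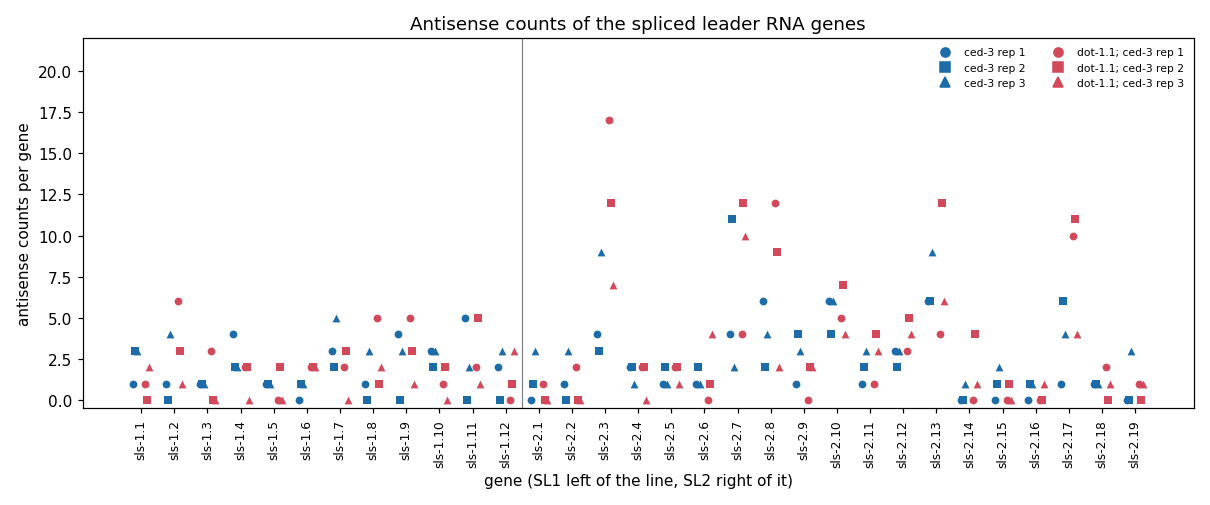
Antisense counts of each spliced leader gene in each of the 6 libraries, coloured by genotype. SL1 genes have at most 6 counts and SL2 genes at most 17, the latter for sls-2.3 in a double-mutant library.

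Without the pseudogene sls-2.19, spliced leader RNAs made up 55.5% to 84.4% of all counts at annotated small nuclear RNA genes. As a share of the sense table, the whole class including them was 0.152%, 0.201% and 0.152% in controls against 0.0788%, 0.135% and 0.117% in double mutants, without overlap. In counts per 1000000 of the adjusted library size it was 782, 3465 and 1334 against 635, 1166 and 2197, with overlap, so the separation depends on the scaling. The spliced leader genes alone were 0.0844%, 0.169% and 0.115% against 0.0482%, 0.0990% and 0.0987%, with overlap. The other 99 small nuclear RNA genes, which include the spliceosomal RNAs, summed to 0.0678%, 0.0319% and 0.0378% against 0.0306%, 0.0361% and 0.0182%, also with overlap. Of these 99 genes 78 were tested in edgeR and 0 were called, also by DESeq2. Of the 78, 60 were below 0, against 49.1% of all genes, with a median log2 change of -0.32. At an unadjusted p under 0.05 there were 3, against 8.12% of all genes. On the normalised scale 7 of the 78 did not overlap, all lower in the double mutant, against 5.79% of all genes in that direction.

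The 5S ribosomal RNA genes, of which 14 of 16 lie in the array with SL1, ranked the libraries differently from SL1. The 16 annotated genes summed to 155741, 28817 and 78521 sense counts in controls against 126299, 133122 and 123899 in double mutants. The ratio of SL1 to 5S counts was 0.0897, 1.23 and 0.278 against 0.0667, 0.129 and 0.191, highest in single-mutant replicate 2, where SL1 was highest and 5S lowest. Of 15 tested 5S genes 15 had log2 changes above 0, with a median of 1.03. None was called by edgeR or DESeq2 and 0 had an unadjusted p under 0.05, while 12 did not overlap between genotypes on the normalised scale, against 6.97% of all genes in that direction. Copies of 5S may share reads, as those of SL1 may, so these are not 15 separate values. As a share of the sense table the 5S sum was 0.811%, 0.129% and 0.374% in controls against 0.642%, 0.682% and 0.469% in double mutants. There the genotypes overlapped, as they did per 1000000 microRNA counts, so the separation of 5S depends on the scaling.

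Genes for proteins of trans-splicing, of spliced leader RNA production and of general RNA processing were listed as a comparison. The list is thus not particular to trans-splicing. Of 37 listed genes 34 were in the tables, and 21 were tested in the sense table. There 20 of 21 were below 0, against 49.1% of all genes, with a median log2 change of -0.43. EdgeR and DESeq2 called 0, and 3 of 21 had an unadjusted p under 0.05, against 8.12% of all genes (cpf-1, mog-4 and snr-6, named after their values were seen). Of the 21 genes 6 did not overlap and were lower in the double mutant, against 5.79% of all genes. For sna-2, which encodes a protein bound to SL1 RNA, the sense counts were 49, 10 and 27 against 14, 13 and 11, with a change of -0.77 ± 0.44 (SE, edgeR adjusted p = 0.617). For snpc-4, which encodes a subunit of the complex that activates small nuclear RNA promoters, they were 50, 15 and 35 against 27, 21 and 6. That change was -0.66 ± 0.45 (SE, edgeR adjusted p = 0.668). Single-mutant replicate 1 was the highest library for both, and the counts were low. On the normalised scale the genotypes overlapped for sna-2 and not for snpc-4.

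On the antisense side, 22 of the listed genes were tested, with a median log2 change of -0.027 and 0 calls by edgeR or DESeq2. Of these 11 were below 0, against 48.1% of all genes. None had an unadjusted p under 0.05, against 5.24% of all genes. There snpc-4 had 26, 29 and 22 counts against 10, 35 and 18, a change of -0.32 ± 0.45 (SE, edgeR adjusted p = 0.928). For sut-1, which encodes a protein related to SNA-1, the counts were 18, 6 and 8 against 12, 15 and 6, a change of 0.07 ± 0.47 (SE, edgeR adjusted p = 0.982). The genotypes overlapped in both. For sna-1, which encodes another SL1-bound protein, the sense counts were 14, 5 and 18 against 6, 6 and 2, too few to be tested.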

How the data were processed

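The authors deposited raw counts, whole-number read counts per gene with 1 column per library, in 2 tables. One is named antisense, and the other, which names no strand and holds most microRNA counts, was read as sense. The submitters' processing notes name WBcel235, while the aligner, the counter and the handling of reads with several matches are not named there or in the labels. Columns were matched by genotype and replicate number. The short names in the titles carry other numbers for replicates 2 and 3, so which sample is which of these is uncertain, and the genotype is not. Unused per-library columns numbered 0.

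Each table was fitted whole with edgeR 4.0.16 in R 4.3.3 over all 6 libraries, with filterByExpr (minimum count 10), TMM scaling and a robust quasi-likelihood F test. Benjamini-Hochberg adjustment ran over all genes of the table that passed the filter. A standard error is the log2 change divided by the square root of F. Normalised counts are per 1000000 of the TMM-adjusted library size. Sums over a family and the SL2 to SL1 ratio (pseudocount 0.5) have values, SDs and no p. An exact two-sided permutation test of 3 libraries against 3 cannot go below p = 0.1. Alternatives were DESeq2 1.42.0, other scalings, no filter on low counts, a replicate block and leaving out libraries, and the edgeR procedure was tested on simulated data.

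Gene classes came from RefSeq, in which 31418 genes were matched, and strands and exons from Ensembl, both on WBcel235. Named in full were, per family and table, the most abundant member, that with the smallest p and any past the threshold, with sna-1, sna-2, sut-1 and snpc-4. The other members were open to naming. Members and lists were chosen with earlier results of these data known. Listed genes sna-3, snpc-1.5 and tgs-1 were not matched in the tables.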

Additional observations from a re-analysis of the deposited data

How the results depend on the processing

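Spliced leader genes past the threshold numbered 0 in both tables under every alternative run. In the antisense table none passed the filter on low counts over all 6 libraries. Runs that kept this filter and all 6 libraries could therefore call none there. Over all genes, sense calls rose from 0 higher and 0 lower in edgeR to 9 and 1 with DESeq2, 102 and 15 without the filter on low counts, and 148 and 13 without the 2 microRNA-rich libraries. Antisense calls were 89 higher and 25 lower without the filter, and 6 lower with DESeq2. Leaving out 1 library at a time gave 0 to 6 sense genes higher, 6 without double-mutant replicate 3. The causes were not tested.

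With 1 library left out, the log2 change of the sum ran from -1.29 to 0.54 for SL1 and -0.61 to 0.44 for SL2 in the sense table, and that of the SL2 to SL1 ratio from -0.13 to 0.58. In the antisense table these ranges were -0.33 to 0.22, 0.13 to 0.56 and 0.19 to 0.93. Without single-mutant replicate 2 the sign reversed for sls-1.12 (0.54), sls-1.3 (0.45), sls-2.4 (0.48) and antisense sut-1 (-0.12). Without double-mutant replicate 1 it reversed for sls-2.4 (0.17) and antisense snpc-4 (0.026), without double-mutant replicate 2 for sls-2.4 (0.069) and antisense sut-1 (-0.036), and without single-mutant replicate 3 for antisense sut-1 (-0.088). With 1 library left out, ranges were -1.29 to 0.54 for sls-1.12, -1.303 to 0.45 for sls-1.3, -0.92 to 0.48 for sls-2.4, -0.64 to 0.026 for antisense snpc-4 and -0.12 to 0.47 for antisense sut-1. None of these was past the threshold.

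Same-numbered libraries correlated in their deviations by 0.65, 0.014 and -0.14 in the sense table. Single-mutant replicate 2 and double-mutant replicate 3 correlated by 0.54. With 3 libraries per genotype the deviations are not independent, and the numbers of replicates 2 and 3 are uncertain. These values therefore cannot decide whether the samples were paired. With a replicate block edgeR called 0 genes in both tables, and unadjusted p under 0.05 held for 463 higher and 216 lower genes in the sense table and 385 and 206 in the antisense table. The fit of a family as 1 row was added after the data were seen. An antisense fit over spliced leader genes that passed the filter could not be made, since none passed. Antisense values were at most 17 counts per gene and library.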

Other observations

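The 5S genes next to sls-1.12 differed from the other 5S genes of the array in which table held their counts. The genes rrn-4.2, rrn-4.3 and rrn-4.4 (chromosome V, from 17115903 to 17118935, WBcel235), all annotated on the plus strand, lie on both sides of sls-1.12. Their mean antisense count was 6186, 1195 and 3156 in controls against 5019, 5773 and 5869 in double mutants, while their mean sense count was 24.3, 12.3 and 20.7 against 30.3, 30.0 and 11.3. The 11 other 5S genes of the array had the reverse, with mean sense counts of 12968, 2407 and 6539 against 10523, 11073 and 10324. Near the plus-strand SL1 copy, 5S counts thus lay opposite the annotated 5S strand, and along the rest of the array, where SL1 is annotated on the minus strand, they lay on it. In 6 of 6 libraries most 5S counts of the array were on the strand opposite the annotated SL1 copies beside them. The antisense counts of the 3 genes were 11.51% to 13.4% of their sum with the sense counts of the 11 others. This pattern was chosen after the values were seen.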
